A study of Mus musculus with 12 samples.

Results

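The chains of the collagens and laminins were followed in primary cells from the mouse fetal cortex that were grown with triiodothyronine (T3), the hormone form that binds the thyroid hormone receptors, or without it. The members are all genes of the series' expression table with a symbol of the form Col, number, a, number or Lama, Lamb or Lamc and a number. The table lists 14801 genes, and 46 of them fit this rule, 36 collagen chains and 10 laminin chains. Another 9 protein-coding genes of the mouse annotation fit it and were not analysed here, namely Col6a4, Col6a6, Col7a1, Col10a1, Col13a1, Col17a1, Col24a1, Col28a1 and Lamc3.

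The T3 group held 6 cultures given 10 nM T3 for 24 h, and the group without T3 held 6 cultures kept in the same way without the hormone. All cells came from wild-type fetuses of gestational day 17.5. Each of 6 fetuses, numbered as mouse 1 to 6, supplied 1 culture of each kind. Both groups had grown for 9 days on poly-L-ornithine, with horse serum and laminin protein in the plating medium, and both had been without the B27 supplement for 24 h. Every animal was a single fetus, so the spread between cultures of a group includes differences between animals and between dissections.

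Collagen chains wind around each other into helical trimers. Fibril-forming collagens build the cables of connective tissue, fibril-associated collagens decorate them, collagen IV forms the network of basement membranes, and transmembrane collagens sit in the plasma membrane of the cell that makes them. Laminins are trimers of an alpha, a beta and a gamma chain that polymerise on the cell surface and start a basement membrane. In the brain such sheets lie under the meninges and around blood vessels, and neurons and glia make some of these chains themselves.

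Up to 250 bases upstream of the start of transcription are shown for Col19a1, Col11a1 and Col23a1, the chains that passed the test of T3, because the thyroid hormone receptor is known to bind the DNA word AGGTCA and repeats of it. The sequences are from RefSeq for GRCm38.p6 and are written 5′ to 3′ on the strand of the gene. Capitals mark AGGTCA or its reverse complement TGACCT. The Col19a1 stretch lies at chr1:24587473-24587687 on the minus strand and leaves out the bases that the GENCODE annotation counts as exon. The Col11a1 stretch lies at chr3:114030290-114030539 and the Col23a1 stretch at chr11:51289670-51289919, both on the plus strand.
Col19a1: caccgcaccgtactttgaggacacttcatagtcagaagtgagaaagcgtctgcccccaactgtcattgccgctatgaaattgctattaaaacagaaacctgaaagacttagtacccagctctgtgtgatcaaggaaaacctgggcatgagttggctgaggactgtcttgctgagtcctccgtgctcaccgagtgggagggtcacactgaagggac
Col11a1: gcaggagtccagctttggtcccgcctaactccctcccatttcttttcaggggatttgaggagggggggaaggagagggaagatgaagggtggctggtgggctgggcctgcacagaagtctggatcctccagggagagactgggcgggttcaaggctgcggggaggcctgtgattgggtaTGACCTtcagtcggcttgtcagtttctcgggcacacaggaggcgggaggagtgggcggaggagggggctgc
Col23a1: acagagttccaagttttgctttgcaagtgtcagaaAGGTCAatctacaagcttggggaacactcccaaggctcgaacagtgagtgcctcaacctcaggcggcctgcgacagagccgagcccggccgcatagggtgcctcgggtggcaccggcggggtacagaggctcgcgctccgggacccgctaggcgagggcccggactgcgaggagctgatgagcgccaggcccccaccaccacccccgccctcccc
The Col11a1 stretch held TGACCT from 71 to 66 bases before the start, and the Col23a1 stretch held AGGTCA from 215 to 210 bases before it. The 250 bases before Col19a1 held neither. The word was found on either strand in 4607 of 32851 windows of the same length over all RefSeq promoters (14.0%), and in 6 of the 36 windows that belong to 32 of the members (16.7%). The repeat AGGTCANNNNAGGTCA was found in 5 of all windows and in 0 of the members' windows. These matches describe letters, not binding.

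The libraries held 7460586 to 10837895 reads with T3 and 5272092 to 8136928 without it. In every mouse the T3 library held more reads than the one without T3, so depth and treatment run together. Values are CPM, each gene's reads relative to the library total after a correction for composition (TMM), and a count of 0 allows up to 0.273 to 0.557 CPM by library, which covers counting error only. Hr and Klf9, known T3 response genes, averaged 46.5 ± 2.92 and 65.4 ± 6.60 CPM with T3 against 5.49 ± 1.23 and 23.7 ± 4.71 CPM without it (SD, n = 6 each). Markers of neurons and astrocytes were high in all cultures, with sums over the marker lists of 6745 to 8204 and 1229 to 3205 CPM with T3 and 7228 to 9107 and 813 to 2741 CPM without it. The culture of mouse 4 without T3 also held transcripts of heart muscle and connective tissue. Myh7, a heart myosin, reached 706 CPM there and at most 3.81 CPM elsewhere. Log2 changes of the chains with T3 are therefore given with all 6 mice and without both libraries of mouse 4.

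Per kilobase of exon, the laminin gamma 1 chain Lamc1 had the highest level of all members, with a mean of 10.2 CPM per kilobase over the 12 libraries and a range of 7.93 to 16.1. Lamc1 (chr1:153218922-153332786, GRCm38) is the gamma chain of most laminins. Next came the collagen IV chains Col4a2 with 5.37 and Col4a1 with 5.19, the main chains of the basement membrane network, then Lamb1 with 4.38, Col23a1 with 4.37, Col4a5 with 4.29, Lamb2 with 3.37, Col26a1 with 2.74, Col9a3 with 2.08 and Col11a1 with 2.01 CPM per kilobase. Exon length joins the exons of all annotated transcripts of a gene, which can place a chain lower than its main transcript alone would. The ranges of neighbours in this order overlapped at every step. Those of Lamc1 and Col4a2 overlapped only through the library of mouse 4 without T3, where Col4a2 reached 10.8 CPM per kilobase. Without the library of mouse 4 without T3 the first places were Lamc1 with 9.61, Col4a2 with 4.88, Col4a1 with 4.44, Col23a1 with 4.20, Col4a5 with 4.10 and Lamb1 with 4.05 CPM per kilobase. Col3a1, a fibril-forming chain of soft connective tissue, was 17th of the 46 chains with all libraries and 31st without that one, with 1.22 and 0.31 CPM per kilobase.

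**Figure D1:**
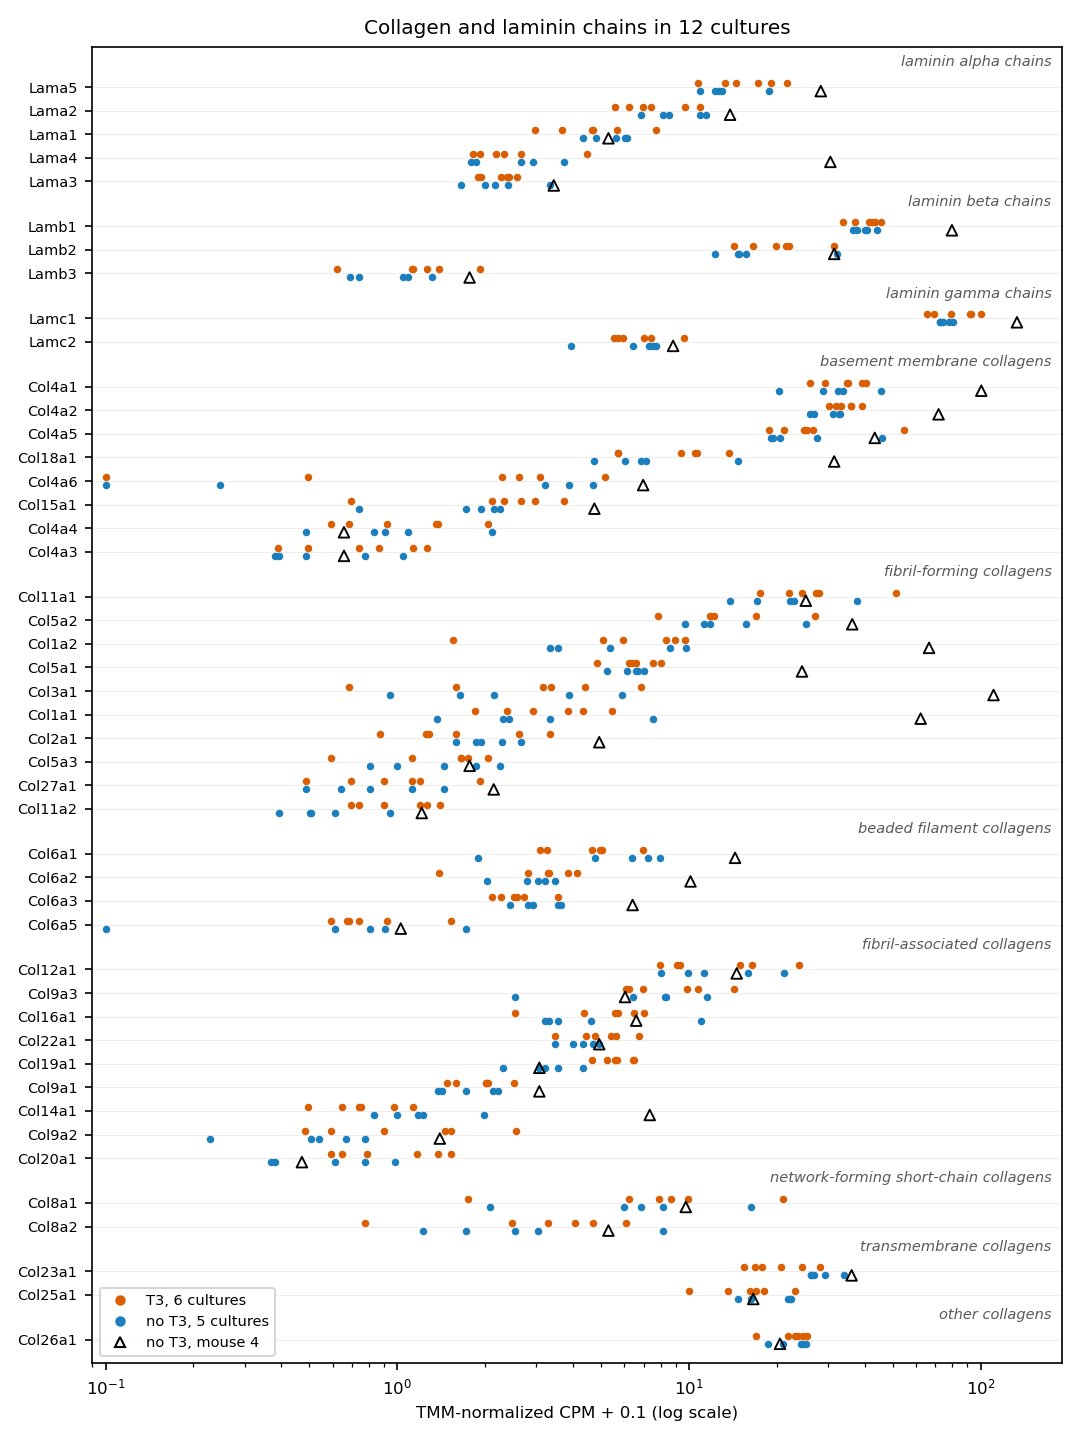
TMM-normalized CPM plus 0.1 on a log scale for each of the 46 chains, grouped by class, with 1 point per culture and the library of mouse 4 without T3 marked apart. Lamc1 lies farthest right, from 65.6 to 100.3 CPM with T3 and 72.4 to 133 CPM without it. The marked library is highest for 24 chains, a count that was not made over all genes.

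Of the 46 members, 37 had enough reads to be tested and 9 did not (Col4a3, Col4a4, Col6a5, Col9a2, Col11a2, Col14a1, Col20a1, Col27a1 and Lamb3). With all 6 mice, 3 of the 37 passed an adjusted p of 0.05 in the paired limma test, 2 higher and 1 lower with T3. That is 8.11% of the members, against 5.52% of all 13663 genes tested, of which 3.37% were higher and 2.14% lower. Without mouse 4 the same 3 chains passed, against 4.17% of 13653 genes (2.49% higher and 1.68% lower). All 3 were collagens, of 28 tested, and 0 of 9 laminin chains passed. In bulk RNA, fewer cells of a type and less RNA per cell cannot be told apart, and this holds for every change below.

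Col23a1 (ENSMUSG00000063564, chr11:51289920-51583918), a transmembrane collagen, fell with T3. It stood at 15.4, 19.1 and 28.0 CPM (lowest, median and highest) with T3 and at 26.1, 27.9 and 36.0 CPM without it. The T3 culture was the lower one in 6 of 6 mice, and the ranges of the groups overlapped. The means were 20.5 ± 4.90 CPM with T3 and 29.7 ± 4.30 CPM without it (SD, n = 6 each), and the log2 change was -0.54 (SE 0.0815, adjusted p = 0.00021 by limma). Without mouse 4 it was -0.58 (SE 0.0899, limma adjusted p = 0.000654). The drop was smallest in mouse 3, by 0.25 on the log2 scale, and greatest in mouse 5, by 0.78. The values rested on 129 to 252 reads per library.

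Col19a1 (ENSMUSG00000026141, chr1:24261890-24587472, minus strand) rose with T3. It is a fibril-associated collagen that subsets of neurons make in the mouse brain. With T3 it stood at 4.55, 5.53 and 6.36 CPM and without T3 at 2.20, 3.04 and 4.24 CPM. The highest culture without T3 lay below the lowest with T3, so the groups did not overlap. Col19a1 was the only one of the 37 chains of which this was true, against 1.68% of all genes tested. The means were 5.57 ± 0.698 CPM with T3 and 3.16 ± 0.672 CPM without it (SD, n = 6 each). The log2 change was 0.74 with all mice (SE 0.152, limma adjusted p = 0.00428) and 0.75 without mouse 4 (SE 0.164, limma adjusted p = 0.011). It was higher with T3 in 6 of 6 mice, by 0.09 on the log2 scale in mouse 3 and by 0.70 to 1.15 in the others. The level was low, with 15 to 64 reads per library.

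Col11a1 (ENSMUSG00000027966, chr3:114030540-114220718), a minor chain of cartilage-type fibrils that sets their width, also rose with T3. It stood at 17.4, 25.7 and 51.3 CPM with T3 and at 13.7, 22.4 and 37.4 CPM without it. The groups overlapped widely. Mouse 1 was highest in both groups, with 51.3 CPM with T3 and 37.4 CPM without it, and mouse 3 lowest in both, with 17.4 and 13.7 CPM. Within a mouse the T3 culture was higher in 6 of 6 cases, by 0.11 to 0.45 on the log2 scale. The means were 28.3 ± 11.9 CPM with T3 and 23.0 ± 8.19 CPM without it (SD, n = 6 each). The log2 change was 0.28 with all mice (SE 0.0750, limma adjusted p = 0.0300) and 0.31 without mouse 4 (SE 0.0817, limma adjusted p = 0.0350). With all mice the call was lost when mouse 1, 2, 3 or 6 was left out, with limma adjusted p of 0.0895, 0.0772, 0.0998 and 0.0732.

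**Figure D2:**
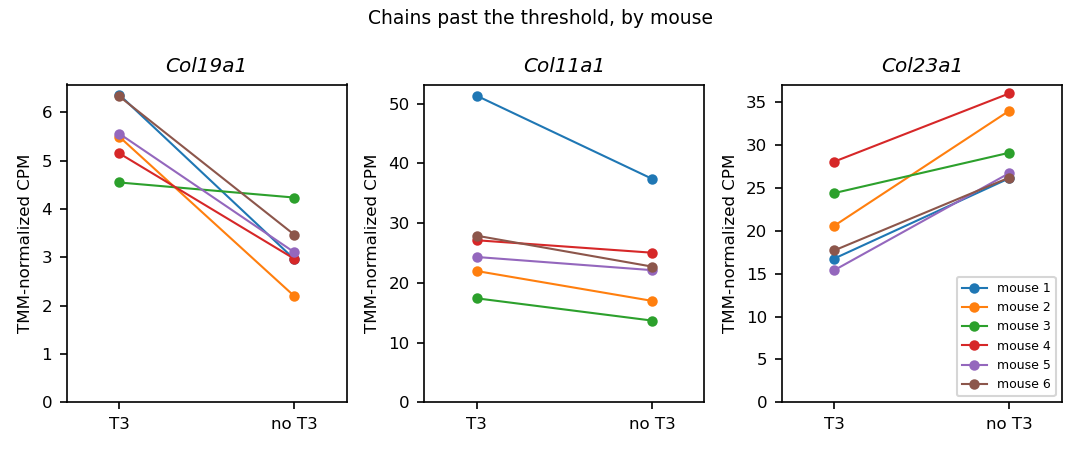
TMM-normalized CPM of Col19a1, Col11a1 and Col23a1 in T3 cultures (left in each panel) and cultures without T3 (right), with a line for each of the 6 mice. Every line is higher at T3 for Col19a1 and Col11a1 and lower at T3 for Col23a1.

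With all mice, 7 of 7 tested astrocyte markers and 5 of 6 oligodendrocyte lineage markers had log2 changes above 0, the direction of Col19a1 and Col11a1. The 1 microglia marker tested had a log2 change of -0.15 and did not pass. The sum of the neuron markers was higher with T3 in 1 of 6 mice. Of 9 neuron markers tested, 1 rose with all mice, and 0 passed without mouse 4. Of the astrocyte markers, 8 of 8 were listed and 7 tested, 4 of which rose with T3 (Slc1a2, Aldh1l1, Gfap and Aqp4), against 3.37% of all genes. Without mouse 4, 3 of the 7 rose (Slc1a2, Gfap and Gja1), against 2.49% of all genes. Their sum was 1229 to 3205 CPM with T3 and 813 to 2741 CPM without it, higher with T3 in 6 of 6 mice. It was highest in mouse 1 in both groups, as Col11a1 was, but lowest in mouse 6 in both groups. In mouse 6 Col11a1 stood at 27.9 CPM with T3 and 22.7 CPM without it, and Col11a1 was lowest in mouse 3. Of the oligodendrocyte lineage markers, 6 of 6 were listed and tested and 3 rose (Olig1, Olig2 and Gpr17), or 2 without mouse 4 (Olig1 and Gpr17), with sums of 230.1 to 314 CPM with T3 and 169 to 279 CPM without it, higher with T3 in 6 of 6 mice. None of the listed astrocyte and oligodendrocyte markers was at 0 in any library. The part of these cell types or of neurons in the changes of Col19a1, Col11a1 and Col23a1 was not tested.

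Among the other fibril-forming collagens none passed the test, and their direction depended on mouse 4. With all mice 7 of 8 tested chains of this class were lower with T3, with a median log2 change of -0.35, and without mouse 4 only 3 of 8 were, with a median of 0.03. Col2a1, the main collagen of cartilage, stood at 0.774, 1.33 and 3.25 CPM with T3 and at 1.48, 2.01 and 4.82 CPM without it, with a log2 change of -0.42 (SE 0.190, limma adjusted p = 0.251) and of -0.34 (SE 0.205) without mouse 4. Col5a1 and Col5a2, which start fibrils together with type I chains, had log2 changes of -0.27 and -0.26 with all mice and of 0.05 and 0.01 without mouse 4.

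The fibril-associated chain Col9a3 (chr2:180597790-180622189) came nearest to the threshold among the chains that did not pass. It stood at 6.00, 8.29 and 14.2 CPM with T3 and at 2.44, 7.28 and 11.4 CPM without it, with overlapping groups and a higher value with T3 in 5 of 6 mice. The log2 change was 0.36 (SE 0.139, limma adjusted p = 0.159) and 0.40 without mouse 4 (SE 0.151, limma adjusted p = 0.185). Col25a1, the other transmembrane collagen, is the neuronal chain from which an amyloid plaque component is cut. It stood at 9.89, 16.4 and 23.0 CPM with T3 and at 14.6, 19.1 and 22.3 CPM without it, with a log2 change of -0.24 (SE 0.102, limma adjusted p = 0.213) and of -0.28 (SE 0.112) without mouse 4. Col6a3, a chain of the beaded filaments around cells, was lower with T3 in 6 of 6 mice but did not pass. By mouse its log2 change ran from -1.23 in mouse 4 to -0.002 in mouse 6, where the 2 cultures were nearly equal. The fitted log2 change was -0.37 (SE 0.174, limma adjusted p = 0.278), and -0.20 without mouse 4. Col26a1 (chr5:136741759-136883209), a small secreted collagen, stood at 16.9, 23.3 and 25.3 CPM with T3 and at 18.6, 22.5 and 25.0 CPM without it. Its groups overlapped fully, and the log2 change was 0.01 (SE 0.0860, limma adjusted p = 0.968) and -0.003 (SE 0.0958) without mouse 4.

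None of the 6 basement membrane collagens that were tested passed in either fit. Col4a1, Col4a2 and Col4a5 were the highest of them per kilobase. The starts of Col4a1 and Col4a2 overlap by 22 bases on opposite strands at chr8:11312805-11312826, and both genes are read outward from there. Col4a1 stood at 25.8, 34.8 and 40.3 CPM with T3 and at 20.3, 32.9 and 100.4 CPM without it. Col4a2 stood at 30.2, 34.6 and 39.1 CPM with T3 and at 25.9, 31.8 and 71.6 CPM without it. The groups overlapped for both, and the highest value of each belonged to mouse 4 without T3. The log2 change of Col4a1 was -0.17 (SE 0.281) with all mice and 0.10 (SE 0.0943) without mouse 4. For Col4a2 it was -0.01 (SE 0.184) and 0.19 (SE 0.0858, limma adjusted p = 0.28). Col4a5 (chrX:141475385-141689234), an X-linked collagen IV chain, stood at 18.7, 25.0 and 54.4 CPM with T3 and at 19.0, 23.9 and 45.9 CPM without it, with a log2 change of -0.03 (SE 0.123) and 0.12 (SE 0.0877) without mouse 4.

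The laminin chains had a median log2 change of -0.10 with all mice and of 0.02 without mouse 4. Lamc1 stood at 65.6, 85.3 and 100.3 CPM with T3 and at 72.4, 75.8 and 133 CPM without it, with a log2 change of -0.01 (SE 0.102, limma adjusted p = 0.967) and 0.09 (SE 0.0790, limma adjusted p = 0.662) without mouse 4. Lamb1 (chr12:31265234-31329644), the beta chain of most early laminins, stood at 33.6, 41.9 and 45.3 CPM with T3 and at 36.5, 40.4 and 79.6 CPM without it. Its log2 change was -0.14 (SE 0.109), and 0.00 (SE 0.0713) without mouse 4. Lamb2 (chr9:108479736-108490530), the beta chain of synaptic and mature basement membranes, stood at 14.2, 20.6 and 31.4 CPM with T3 and at 12.2, 15.1 and 32.0 CPM without it, with a log2 change of 0.12 (SE 0.158) and 0.27 (SE 0.118, limma adjusted p = 0.259) without mouse 4. All of these groups overlapped.

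The alpha chains give a laminin its binding partners, and 5 of 5 were listed. Lama5 was the highest of them per kilobase, and stood at 10.6, 15.8 and 21.6 CPM with T3 and at 10.8, 12.7 and 28.2 CPM without it, with a log2 change of 0.05 (SE 0.112) and of 0.18 (SE 0.107) without mouse 4. Lama2, the chain lost in a congenital muscular dystrophy, stood at 5.49, 7.09 and 10.8 CPM with T3 and at 6.73, 9.63 and 13.7 CPM without it, with a log2 change of -0.34 (SE 0.153, limma adjusted p = 0.261) and of -0.15 (SE 0.129) without mouse 4. Lama1, the first alpha chain of the embryo, ranged from 2.86 to 7.62 CPM with T3 and from 4.24 to 6.03 CPM without it, and Lama3, an epithelial chain, from 1.79 to 2.47 CPM with T3 and from 1.55 to 3.34 CPM without it. The log2 change was -0.17 (SE 0.15) for Lama1 and -0.10 (SE 0.180) for Lama3 with all mice, and -0.17 (SE 0.163) and 0.02 (SE 0.181) without mouse 4. None of the alpha chains passed.

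**Figure D3:**
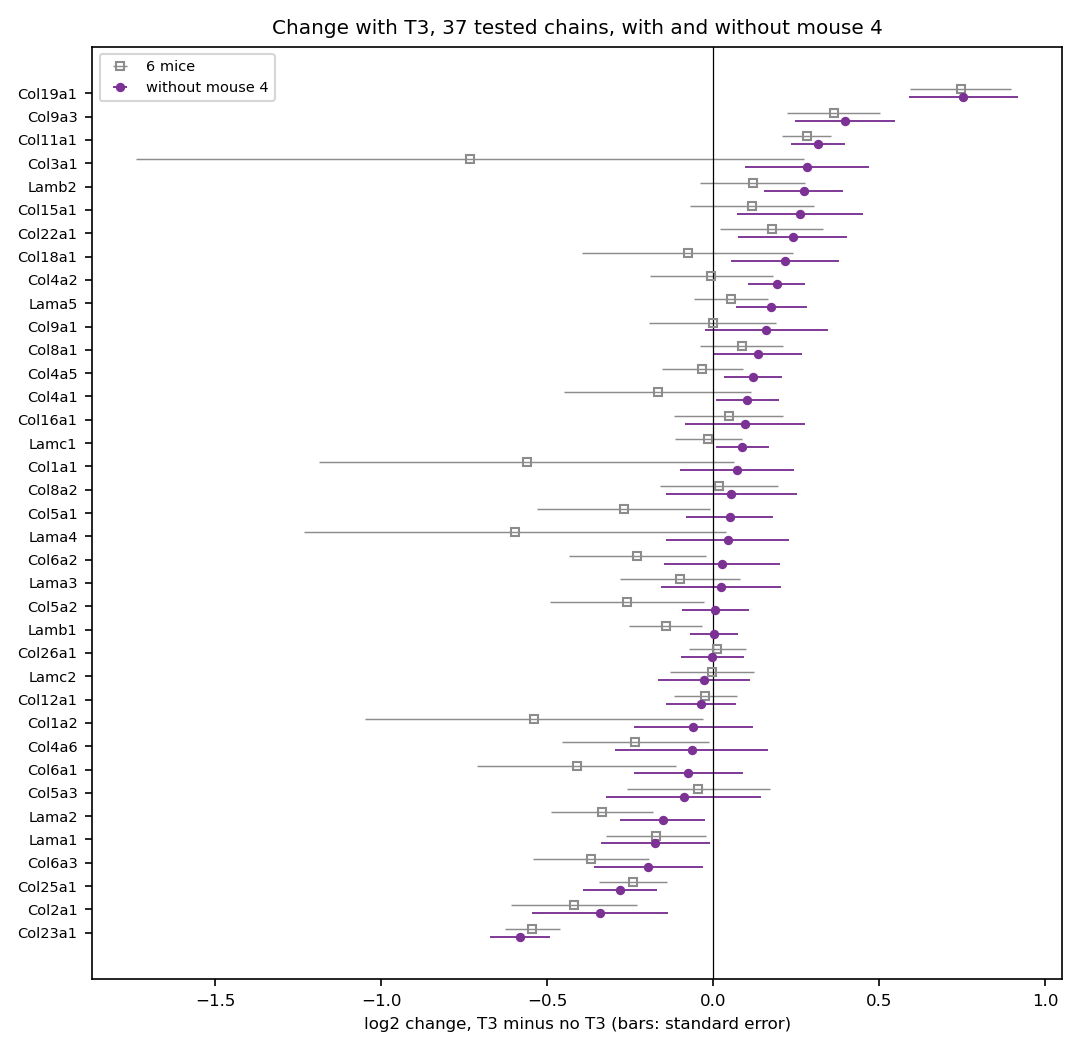
Log2 change (T3 minus no T3) of the 37 tested chains, with the SE as bars, from all 6 mice (grey squares) and without mouse 4 (purple circles). Without mouse 4 the points of Col3a1, Col1a1, Col1a2 and Lama4 lie at 0.28, 0.07, -0.06 and 0.04, to the right of -0.73, -0.56, -0.54 and -0.60 with all mice.

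Over the 37 tested chains the median log2 change was -0.08 with all mice, with 26 chains below 0 and 11 above, and 0.05 without mouse 4, with 13 below and 24 above. Over all genes tested the median was 0.00 in both fits. The sign of 15 of the 37 chains changed when mouse 4 was left out, a count that was not made over all genes.

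In the mouse 4 library without T3, the library already known to carry connective tissue transcripts, 4 of the 46 chains exceeded their highest level in the remaining 11 libraries by more than 4-fold, with 0.5 added to each value. Over all 14801 genes 52 did (0.351%). Col3a1 (chr1:45311538-45349706) stood at 111 CPM there and at most 6.74 CPM elsewhere, Col1a1 (chr11:94936224-94953042) at 62.2 against at most 7.40, and Col1a2 (chr6:4504814-4541544) at 66.4 against at most 9.69. These are the chains of type I and III collagen, the fibres of skin, vessel wall and heart. Lama4 (chr10:38965515-39110188), the laminin alpha chain of vessels and heart muscle, stood at 30.4 CPM there and at most 4.37 CPM elsewhere. Another 5 chains lay between 2-fold and 4-fold above, namely Col14a1 at 3.24-fold, Col5a1 at 2.95-fold, Col6a2 at 2.32-fold, Col4a1 at 2.19-fold and Col18a1 at 2.10-fold, which makes 9 over 2-fold, against 0.878% of all genes. None of the other 11 libraries held a chain over 2-fold above the rest. The rest included mouse 4 without T3, so the 24 chains highest in that library could not be counted for another one.

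**Figure D4:**
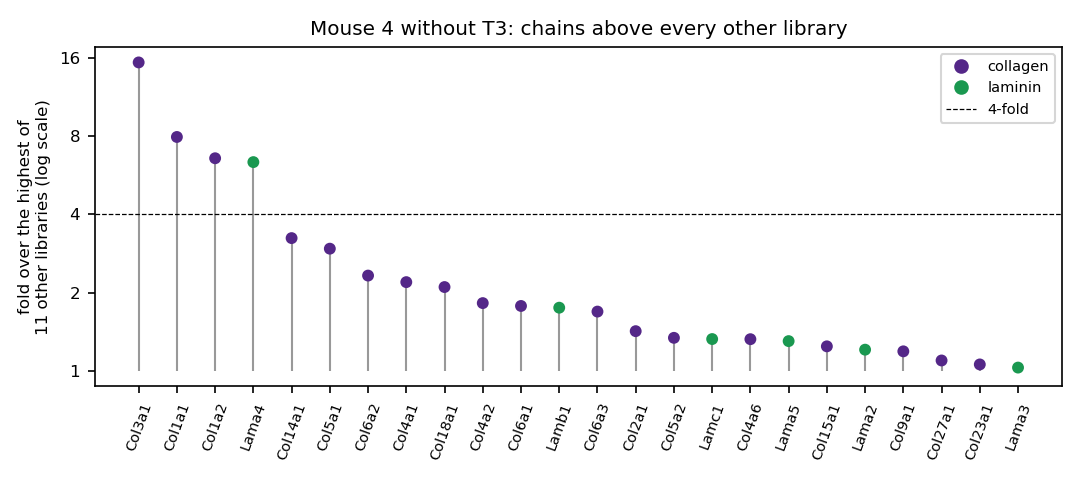
Fold of the mouse 4 library without T3 over the highest of the other 11 libraries, on a log scale and with 0.5 added to each value, for chains that were highest in it. Col3a1 at 15.3-fold, Col1a1 at 7.93-fold, Col1a2 at 6.57-fold and Lama4 at 6.35-fold lie above the dashed line at 4-fold.

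The summed level of the 46 chains was 403 to 634 CPM in the 6 cultures with T3, 409 to 604 CPM in 5 cultures without T3, and 1095 CPM in that of mouse 4. Of the heart and skeletal muscle markers 5 of 14 were listed, and their sum was 64.4 to 81.7 CPM with T3, 56.8 to 65.6 CPM in 5 cultures without T3 and 1393 CPM in that of mouse 4. Of the fibroblast and meningeal markers 7 of 12 were listed, with a sum of 229 to 317 CPM with T3, 191 to 288 CPM in the 5 cultures and 311 CPM in that of mouse 4. Most of this sum was Pdgfra, which oligodendrocyte precursors also express, but Postn stood at 56.0 CPM in that library and at most at 4.94 CPM elsewhere. Dcn, decorin, which binds collagen fibrils, fell with T3 in both fits, to 17.6 ± 3.67 CPM with T3 against 25.4 ± 8.64 CPM without it (SD, n = 6 each; log2 change -0.47, limma adjusted p = 0.00806, and -0.38, limma adjusted p = 0.0492, without mouse 4). Of the endothelial markers 5 of 10 were listed, and Eng stood at 13.9 CPM there and at most at 1.00 CPM elsewhere. The part of these cell types in the high chains was not tested.

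Col3a1 had a log2 change of -0.73 with all mice (SE 1.01, limma adjusted p = 0.795), and of 0.28 without mouse 4 (SE 0.187, limma adjusted p = 0.508). Its values with T3 were 0.581, 3.17 and 6.74 CPM, against 0.847, 2.91 and 111 CPM without T3. Outside mouse 4 the highest value without T3 was 5.80 CPM, so the groups overlapped. Col1a1 stood at 1.74, 3.27 and 5.33 CPM with T3 and at 1.27, 2.77 and 62.2 CPM without it, Col1a2 at 1.45, 7.04 and 9.57 CPM and at 3.25, 6.89 and 66.4 CPM, and Lama4 at 1.72, 2.15 and 4.37 CPM and at 1.69, 2.69 and 30.4 CPM. None of the 4 passed in either fit.

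The chains were also compared between the 6 mice. In an F test of the mouse term of the same limma fit, a test added after the data were seen, 13 of the 37 chains passed an adjusted p of 0.05, against 15.7% of all genes. Of these 12 were among the 28 collagens and 1 among the 9 laminins (Lama5). Without mouse 4, 19 of 37 passed, against 17.0% of all genes, and 11 chains passed in both. Each mouse gave only 1 culture with T3 and 1 without, and animal, dissection and plating cannot be told apart.

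Col8a1 (chr16:57624258-57754737), a short chain of the network under vessel and corneal endothelium, had the smallest p between mice. In mouse 1 it stood at 20.9 CPM with T3 and 16.2 CPM without it, in mouse 3 at 1.64 and 1.98 CPM, and in the others at 6.10 to 9.84 CPM with T3 and 5.91 to 9.65 CPM without it (limma F test, adjusted p = 1.66e-07). Its partner Col8a2 was also lowest in mouse 3, with 0.677 CPM with T3 and 1.13 CPM without it, and highest in mouse 1, with 5.97 and 8.08 CPM (limma F test, adjusted p = 0.00016). Of the choroid plexus markers 4 of 6 were listed, and their sum was also lowest in mouse 3, with 43.6 CPM with T3 and 34.4 CPM without it, and highest in mouse 1, with 374 and 445 CPM. Ttr, their defining marker, ran from 0 to 284 CPM with T3 and from 0.282 to 371 CPM without it. In mouse 6 the sum of these markers was also low, at 90.8 CPM with T3 and 47.0 CPM without it. In mice 2, 4 and 5 it was 242 to 257 and 176 to 218 CPM. Col8a1 stood at 7.81 and 5.91 CPM in mouse 6, and Col8a2 at 2.37 and 2.44 CPM. The part of choroid plexus cells in Col8a1 and Col8a2 was not tested.

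Col4a6 (chrX:141165403-141474076) is an X-linked chain whose RefSeq start lies 1342 bases from that of Col4a5 on the opposite strand. It was at or near 0 in 2 mice. In mouse 2 it stood at 0 CPM with T3 and 0.146 CPM without it, and in mouse 6 at 0.396 and 0 CPM. The value of 0.396 CPM was 4 reads, just above the 0.297 CPM that a count of 0 allows in its library, and the other 3 values lie under the limits of theirs. In the other 4 mice it stood at 2.19 to 5.07 CPM with T3 and at 3.11 to 6.87 CPM without it (limma F test, adjusted p = 2.86e-06). Its neighbour Col4a5 was read in those mice, with 25.3 CPM with T3 and 19.3 CPM without it in mouse 2, and 21.1 and 19.0 CPM in mouse 6.

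Col12a1, a fibril-associated collagen of dense connective tissue, was highest in mouse 1, with 23.8 CPM with T3 and 21.1 CPM without it, and lowest in mouse 3, with 7.84 and 7.91 CPM (limma F test, adjusted p = 1.55e-05). The pattern of Col11a1, described above, had an adjusted p of 2.71e-06 in the same limma F test. Of the chains that passed the T3 test, Col11a1 and Col23a1 also passed the F test with all mice (limma adjusted p = 0.0132 for Col23a1). Without mouse 4 Col11a1 still passed the limma F test (adjusted p = 3.52e-06) and Col23a1 did not (adjusted p = 0.121).

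**Figure D5:**
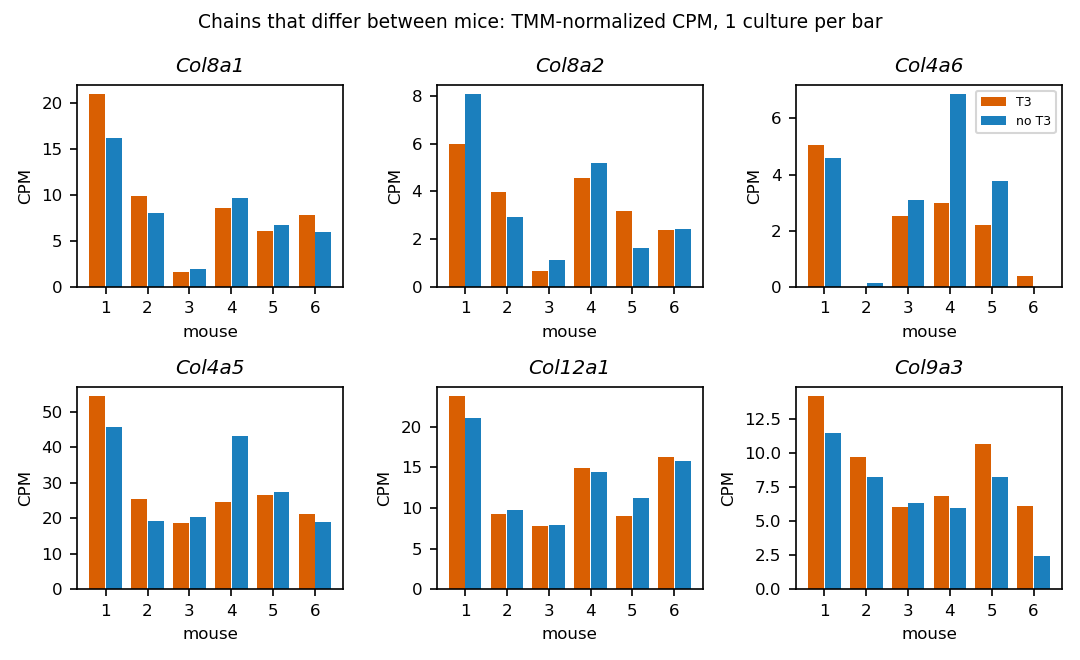
TMM-normalized CPM by mouse in T3 cultures (left bar of each pair) and cultures without T3 (right bar) for chains that differed between mice, with 1 culture per bar. Mouse 1 is highest for Col8a1 and Col12a1, and Col4a6 is at or near 0 in mice 2 and 6.

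Genes that process, bind or cut the chains were taken from 4 lists. Their counts stand against 3.37% of all genes higher and 2.14% lower with all mice, and 2.49% higher and 1.68% lower without mouse 4. Of 28 tested genes of collagen synthesis and processing, 3 rose with T3 and none fell, with a median log2 change of 0.07. Plod1, which hydroxylates collagen lysines, averaged 20.4 ± 4.81 CPM with T3 and 13.5 ± 4.18 CPM without it (SD, n = 6 each; log2 change 0.60, SE 0.106, limma adjusted p = 0.00123). The enzymes that trim the ends of procollagens, Bmp1 at the carboxyl end and Adamts2 at the amino end, averaged 30.9 ± 2.20 and 12.7 ± 1.33 CPM with T3 against 24.0 ± 2.72 and 8.85 ± 1.28 CPM without it, with limma adjusted p of 0.00344 and 0.00791. Pcolce2, which enhances the Bmp1 step, had a log2 change of 0.61 (limma adjusted p = 0.0562), and passed without mouse 4 with 0.72 (limma adjusted p = 0.0375), so that 4 of 28 were higher there.

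Of 16 basement membrane partners 1 rose in each fit. It was Npnt, nephronectin, a ligand of integrin alpha 8, with 49.0 ± 5.19 CPM with T3 and 28.1 ± 3.83 CPM without it (SD, n = 6 each; log2 change 0.79, SE 0.0631, limma adjusted p = 1.06e-07). Of 16 laminin and collagen receptors 1 rose, Itga7, a laminin-binding integrin chain, with 15.0 ± 3.75 CPM with T3 and 9.12 ± 1.97 CPM without it (SD, n = 6 each; log2 change 0.68, SE 0.102, limma adjusted p = 0.000217). Without mouse 4 Itga9 passed too, with a log2 change of 0.52 (limma adjusted p = 0.0388), against 0.35 and a limma adjusted p of 0.213 with all mice. The median log2 change was -0.07 for the partners and 0.02 for the receptors with all mice, and 0.09 and 0.06 without mouse 4.

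Of 16 genes of matrix breakdown 3 rose and 1 fell, with a median log2 change of 0.03. Mmp17, a membrane-anchored metalloproteinase, averaged 105 ± 15.1 CPM with T3 and 64.4 ± 8.63 CPM without it (SD, n = 6 each; log2 change 0.70, SE 0.0614, limma adjusted p = 2.76e-07). The lysosomal proteases Ctsl and Ctsb rose by 0.29 and 0.23 on the log2 scale, with limma adjusted p of 0.0019 and 0.00397. Their exons overlap genes of the other strand over 26.9% and 12.8% of their length, and these reads carry no strand. Adamts1, a secreted protease, fell with all mice, with a log2 change of -0.24 (limma adjusted p = 0.0457), and did not pass without mouse 4, with -0.19 (limma adjusted p = 0.189). Without mouse 4, 15 genes of this list were tested, 3 rose and none fell, with a median log2 change of 0.18.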

How the data were processed

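RNA was made into libraries from 500 ng with a TruSeq kit that does not mark strand and read as single 75-base reads, per the labels' protocols. Per the submitters' processing notes, CASAVA, FastQC, Bowtie, TopHat, HTSeq and edgeR were used with GRCm38 (versions not given in the sources used here). Per the file headers, the signal the authors deposited is TMM-normalized CPM. The table and the files of single libraries held equal values within 5.1e-11. A gene is listed with at least 1 CPM in at least 2 of the 12 libraries, so a chain seen in 1 library alone would be missing. Divided by the value of 1 read, 100% of the values came out whole within 0.01 reads.

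R 4.3.3 and limma 3.58.1 fitted log2(value + 0.5) with trend, robust estimation and mouse as a block, on the 13663 genes kept by filterByExpr of edgeR 4.0.16. This scale understates changes of low genes. Two-sided p-values received Benjamini-Hochberg adjustment over all genes tested, with a threshold of 0.05. edgeR on the recovered reads called 782 genes and DESeq2 1.42.0 called 522, against 754 with limma. The script was tested on simulated data. The series' design says that a fetus supplied both cultures. Deviations from the group means correlated between 0.237 and 0.638 in the 6 pairs. Between different mice the median was -0.106, which subtracting the group means itself lowers. The highest value between different mice was 0.348, above the pairs of mouse 2 (0.345) and mouse 4 (0.237). The own pair was still the best match in 6 of 6 mice.

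Coordinates, exon lengths and overlaps are from GENCODE M21 on GRCm38, and 14648 IDs had a symbol. Exons of the members overlap opposite-strand genes by at most 6.07% (Col9a3). The members and the gene lists were chosen with earlier results of these data known. Values were to be given for chains past the threshold, the 10 highest per kilobase and those over 4-fold in the mouse 4 library without T3. Genes of lists were named when past the threshold or among the 3 smallest p of their list, and the chains described beyond these were chosen after their values were seen. Alternatives changed the pseudocount, filter, scaling, tool, block and mice.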

Additional observations from a re-analysis of the deposited data

Results flagged for a closer look

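Among 20 chains with values for single cultures, 40 groups of 6 cultures were examined for a culture whose gap to its nearest neighbour was large for the range of its group, and 11 groups held one. Chance alone gives about 1 in 20 groups, but the count cannot be read against that share, since Col3a1, Col1a1, Col1a2 and Lama4 were among the 20 because they were high in the mouse 4 library without T3. The culture of mouse 4 without T3 accounted for 8, with Lamc1 at 133 CPM (next 80.4), Lamb1 at 79.6 (next 43.9), Col4a1 at 100.4 (next 45.5), Col4a2 at 71.6 (next 32.8), Col1a1 at 62.2 (next 7.40), Col1a2 at 66.4 (next 9.69), Col3a1 at 110.6 (next 5.80) and Lama4 at 30.4 CPM (next 3.64). Among T3 cultures, mouse 1 stood apart for Col11a1 at 51.3 CPM (next 27.9) and Col4a5 at 54.4 CPM (next 26.6), and mouse 5 for Lama4 at 4.37 CPM (next 2.56).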

How the results depend on the processing

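Col23a1 lost its call only without the mouse as a block, with a limma adjusted p of 0.0704, and Col19a1 kept it in all 16 alternatives tried with all mice, with log2 changes of 0.66 to 0.88. With mouse 4 left out, Col19a1 also lost it with DESeq2 (adjusted p = 0.0653), without the block (limma adjusted p = 0.067) and without mouse 2 (limma adjusted p = 0.0521). Col11a1 lost it with DESeq2 and without the block too. Without the replicate block 178 of all genes, 1 chain and 4 genes of the partner lists passed, against 754, 3 and 9, and 1 chain passed without mouse 4. DESeq2 without mouse 4 called 1 chain. Leaving out 1 mouse at a time gave 459 to 854 genes, 2 to 3 chains, 1 to 3 chains when mouse 4 was already out, 8 to 10 partner genes, and 10 to 19 chains that differed between mice. In the mouse 4 library without T3, 9 chains lay over 2-fold and 1 over 8-fold above the others. Among the chains followed in this way that did not pass, the log2 change crossed 0 when a mouse was left out for 10, with ranges of -0.111 to 0.0872 for Lamc1, -0.199 to 0.00174 for Lamb1, -0.0164 to 0.27 for Lamb2, -0.30 to 0.10 for Col4a1, -0.10 to 0.19 for Col4a2, -0.12 to 0.12 for Col4a5, -0.0616 to 0.0757 for Col26a1, -1.05 to 0.28 for Col3a1, -0.742 to 0.0715 for Col1a1 and -0.804 to 0.0434 for Lama4. It did not cross 0 for Col9a3, Col25a1 and Col1a2. Adamts1 lost its call in 8 of 16 alternatives. The cause of these shifts was not tested. Chains with a few reads per library, such as Col4a3, cannot show small changes at this depth.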
